A study of Mus musculus with 2 samples.

Results

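Kruppel-like factors are zinc finger transcription factors. The account here is about 8 of them, Klf2, Klf3, Klf4, Klf5, Klf6, Klf9, Klf10 and Klf13, taken by gene symbol from the 32285 genes counted in nuclei of mouse colon. Single-nucleus RNA sequencing with 3′ tags was run on 2 libraries from 15-week-old male C57BL/6 mice, 1 of Pink1 knockout animals and 1 of their wild-type littermates. Pink1 encodes a mitochondrial kinase that marks damaged mitochondria for removal. Sorted nuclei of 3 mice were pooled in each library, the labels do not say which part of Pink1 is deleted, and the wild-type library is batch 1 and the knockout library batch 2. Genotype, batch and library therefore cannot be told apart, no test between genotypes is possible, and every interval below covers counting error only.

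The family binds GC-rich and CACCC-type promoter elements through 3 zinc fingers at the C-terminal end, and its members differ mainly in the N-terminal part, which recruits other proteins. Klf2, Klf4, Klf5 and Klf6 can activate transcription with acetyltransferases, Klf3 represses through the CtBP corepressors, and Klf9, Klf10 and Klf13 repress through Sin3. In the gut, Klf5 is known from dividing crypt cells and Klf4 from goblet cells and the differentiated surface, while Klf2 is known from blood vessel endothelium, where shear stress induces it through MEF2 factors. Klf9 is induced by glucocorticoids, Klf10 by TGF-beta, and Klf2, Klf4, Klf6 and Klf10 behave as early response genes in many cultured cells.

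All 8 members were found in the files under 1 row each. On GRCm38 with the GENCODE M21 annotation, Klf2 lies at chr8:72319033-72321656 on the plus strand and Klf4 at chr4:55527143-55532466 on the minus strand. Klf5 lies at chr14:99298691-99315036 and Klf6 at chr13:5861482-5870394, both on the plus strand. Klf3 spans chr5:64803388-64832901 on the plus strand and overlaps the minus-strand gene Gm20033. Klf9 spans chr19:23141226-23168134 on the plus strand and Klf10 chr15:38291463-38300706 on the minus strand. Klf13 spans chr7:63886351-63938915 on the minus strand and overlaps the plus-strand genes Gm27252 and E030018B13Rik. The overlapping genes held few UMIs, at most 206 in a library against 13992 and 30556 for Klf3, and at most 79 against 1083 and 1322 for Klf13.

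Promoters of 6 members (Klf2, Klf3, Klf4, Klf6, Klf9 and Klf13) were in the RefSeq table for GRCm38.p6, as the 250 bases before the start. Klf5 and Klf10 had no entry. Since several members are known as induced genes, motifs of inducible promoters were searched on both strands of these windows and of all 32851 promoters in the table. The full cyclic AMP response element TGACGTCA was in 1.55% of all promoters and in none of the 6, and the CArG box, which binds serum response factor, was in 1.47% and in none of the 6. CACCC, the family's own type of element, was in 52.0% of all promoters and in those of Klf2, Klf3, Klf9 and Klf13. A MEF2 box was in 0.508% of all promoters and, among the 6, in that of Klf2, 118 bases before the start. The core TGACG, which is contained in TGACGTCA, was in 17.8% of all promoters and in those of Klf2, Klf4, Klf9 and Klf13. The searches for the MEF2 box and for TGACG were added after the others. The stretches around the MEF2 box of Klf2 (chr8:72318904-72318993, plus strand) and around TGACG in Klf9 (chr19:23141140-23141224, plus strand), Klf13 (chr7:63938927-63939011, minus strand) and Klf4 (chr4:55532663-55532725, minus strand) are shown as examples, since the inducible type of promoter is what the search was for, with the match in capitals. In Klf4 the match lies on the strand opposite to the gene and is read as CGTCA. A match describes letters only and shows no binding.
Klf2: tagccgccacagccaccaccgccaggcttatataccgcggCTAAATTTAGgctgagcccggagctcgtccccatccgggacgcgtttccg
Klf9: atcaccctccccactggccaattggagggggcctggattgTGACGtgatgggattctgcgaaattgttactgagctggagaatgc
Klf13: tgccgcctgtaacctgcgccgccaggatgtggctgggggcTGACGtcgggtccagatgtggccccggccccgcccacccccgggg
Klf4: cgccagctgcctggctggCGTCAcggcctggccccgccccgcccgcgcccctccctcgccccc

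After filtering and removal of doublets, 8256 wild-type and 10966 knockout nuclei remained, with medians of 1626 and 1570 UMIs per nucleus. Pink1 itself had 170 UMIs in the wild-type library (11.3 CPM, UMIs scaled to the same total in each library) and 113 in the knockout library (6.096 CPM). This 3′ tag count may lie outside the deleted part and does not check the label. Clustering without any Klf gene gave 30 clusters, of which 19 units could be compared: 13 classes named from their markers, each with at least 50 nuclei in each library, and clusters 0, 1, 7, 8, 13 and 26, which stayed unnamed. These names come from marker genes alone, and the authors may have named the nuclei differently. Median mitochondrial shares were higher in the knockout library in each of the 19 units, for example 0.153% against 0.0829% in crypt base-like nuclei. The 2 libraries shared 28 barcodes, 22 of them among kept nuclei.

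Over all nuclei, 5 of the 8 members were higher in the knockout library by 1.5-fold or more, and no member was lower by that factor. Klf2 stood highest, with 203 wild-type and 1615 knockout UMIs, 13.5 and 87.1 CPM, a ratio of 6.47 (95% counting interval 5.59 to 7.52). Klf10 followed with 844 and 3045 UMIs and a ratio of 2.93 (2.72 to 3.17), then Klf9 with 2484 and 5791 UMIs and 1.90 (1.81 to 1.99). Klf3, with 12545 and 25502 UMIs, had a ratio of 1.65 (1.62 to 1.69), and Klf6, with 4565 and 8625, had 1.54 (1.48 to 1.59). Klf4 (5805 and 9327 UMIs) had a ratio of 1.31, Klf13 (967 and 1118) 0.940, and Klf5 (12628 and 10818) 0.697, so Klf5 was the member nearest to being called lower. Of the 16564 genes with at least 20 UMIs over both libraries, 6.87% were called higher by this rule and 8.17% were called lower. The median log2 ratio was 0.67 over the 8 members and -0.02 over all genes tested. Sums over all nuclei also move with class sizes: fibroblast-like nuclei were 4.76% of the wild-type and 6.83% of the knockout nuclei, and blood endothelium-like nuclei 0.884% and 1.49%.

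In the 9 named classes with the most measured members, those in the plot of ratios, between 3 and 5 members were at least 1.5-fold higher in the knockout library. In crypt base-like nuclei 4 members were higher and 1 lower, where 6.34% of 11474 genes were higher and 7.04% lower. In proliferating-like nuclei 3 were higher and 1 lower, against 7.36% and 9.46% of all genes. In goblet-like nuclei 5 were higher and none lower, against 6.57% and 12.5%. In colonocyte-like nuclei 3 were higher and 1 lower, against 8.28% and 13.1%. Klf5 was the lower member in each of these epithelial classes that had one. In the stroma, fibroblast-like nuclei had 4 members higher and none lower, against 11.6% and 10.6% of genes, and smooth muscle-like nuclei 4 higher and 1 lower, against 13.6% and 11.2%. Macrophage and dendritic-like nuclei had 4 higher and 1 lower, against 15.7% and 14.7%. In blood endothelium-like nuclei 4 were higher and none lower, against 20.6% and 14.1%, and in lymphatic endothelium-like nuclei 4 were higher and 1 lower, against 18.0% and 13.8%. The members' median log2 ratio ran from 0.18 in macrophage and dendritic-like nuclei to 0.71 in goblet-like nuclei, where the median over all genes was 0.02 and -0.07. Fewer members had 20 UMIs in the other named classes, where 2 of 6 were higher in enteroendocrine-like nuclei, 1 of 4 in T and innate lymphoid-like, 1 of 3 in pericyte-like and 0 of 4 in enteric glia-like nuclei, with 1 lower in each of the last 3. The shares over all genes are not given for these other classes, so these few calls cannot be set beside them. The members were chosen with earlier results of these libraries known, so these counts are a description.

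**Figure D1:**
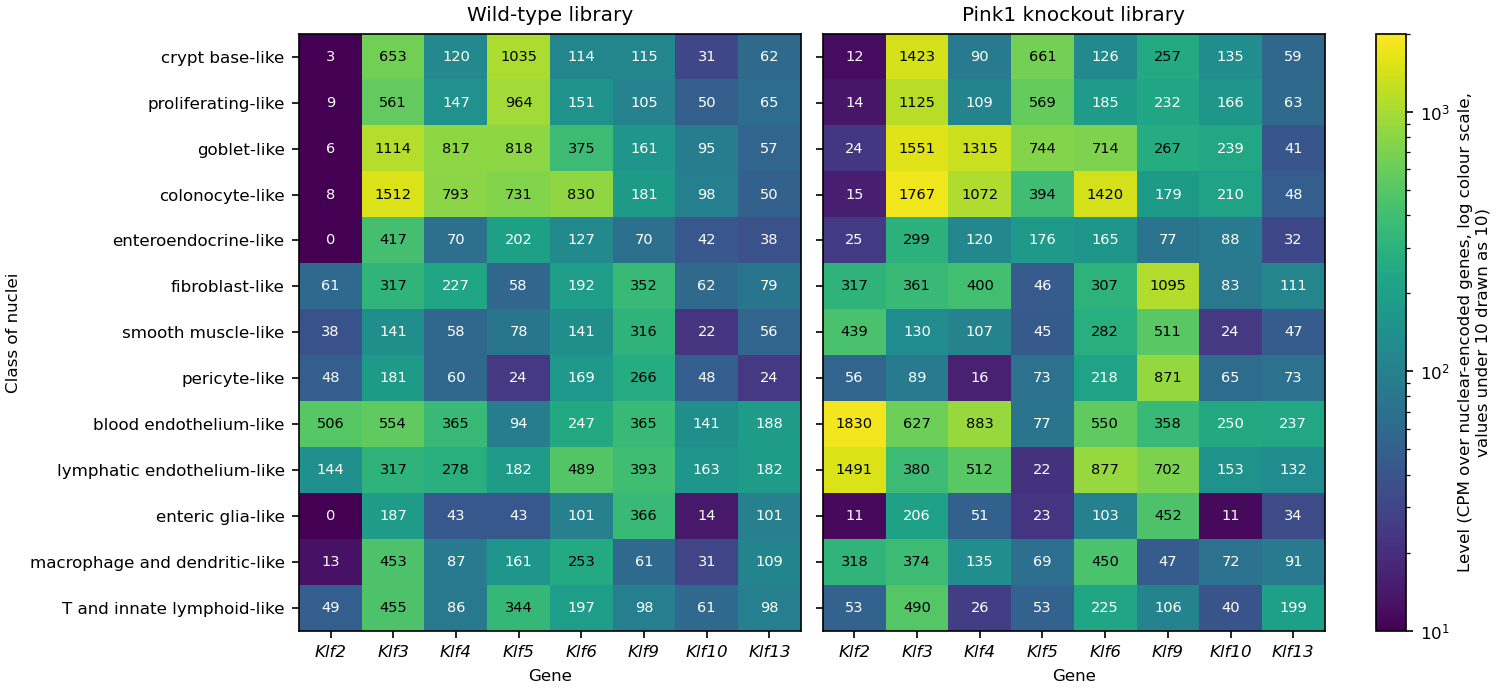
Level of each Kruppel-like factor (columns) in 13 named classes of nuclei (rows), in the wild-type library (left) and the Pink1 knockout library (right), as CPM over nuclear-encoded genes on a log colour scale with the value printed in each cell. Klf2 is brightest in the 2 endothelial classes, Klf3 and Klf4 in goblet-like and colonocyte-like nuclei, Klf6 in colonocyte-like nuclei, and Klf9 in the knockout fibroblast-like nuclei at 1095 CPM.

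Klf2, which maintains a quiescent, anticoagulant state in vessel endothelium, was highest in blood endothelium-like nuclei in both libraries. There it had 43 UMIs in 73 wild-type nuclei (506 CPM, 367 to 682) and 286 UMIs in 163 knockout nuclei (1830 CPM, 1624 to 2055), a ratio of 3.61 (2.62 to 5.10). Lymphatic endothelium-like nuclei came next, with 15 UMIs (144 CPM, 80.5 to 237) and 204 UMIs (1491 CPM, 1293 to 1710), a ratio of 10.4 (6.14 to 18.9). The intervals of the 2 endothelial classes were apart in the wild-type library and overlapped in the knockout library. Below them in the wild-type library, fibroblast-like (60.8 CPM), T and innate lymphoid-like (49.1), pericyte-like (48.3) and smooth muscle-like nuclei (38.1) had overlapping intervals.

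In the knockout library the stromal and myeloid classes were much further above the epithelium. Smooth muscle-like nuclei had 17 wild-type and 330 knockout UMIs of Klf2, 38.1 and 439 CPM, a ratio of 11.5 (7.09 to 20.04). Nearly all of this lay in the cluster led by Carmn and Myh11, where Klf2 went from 37.2 to 521 CPM (ratio 13.997, 8.22 to 25.9). The other smooth muscle-like cluster, led by Hhip and P2ry14, had 42.9 and 66.8 CPM (1.56, 0.389 to 8.95), and the difference between these ratios was not tested. Fibroblast-like nuclei had 37 and 336 UMIs, 60.8 and 317 CPM, a ratio of 5.21 (3.70 to 7.53), with ratios of 4.76, 7.26 and 3.81 in its 3 clusters. Macrophage and dendritic-like nuclei had 3 and 101 UMIs, 13.1 and 318 CPM, a ratio of 24.3 whose interval ran from 8.08 to 120. Pericyte-like nuclei, which carry markers of the mural cells of small vessels, had 4 and 7 UMIs and a ratio of 1.17 (0.297 to 5.44). T and innate lymphoid-like nuclei had 4 UMIs in each library.

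The share of nuclei with a Klf2 UMI was compared after each nucleus was thinned to 500 UMIs. It was 24.7% (exact 95% interval 15.3 to 36.1) of wild-type and 55.2% (47.2 to 63.0) of knockout blood endothelium-like nuclei, and 34.2% and 68.7% before thinning, at median depths of 911 and 916 UMIs. Lymphatic endothelium-like nuclei had 9.64% and 48.8%, fibroblast-like 2.54% and 15.9%, smooth muscle-like 2.03% and 15.6%, and macrophage and dendritic-like 1.23% and 14.9%. In crypt base-like nuclei, at median depths of 1504 and 1460 UMIs, the thinned share was 0 of 1370 wild-type nuclei, which allows up to 0.269%, and 0.433% in the knockout library. No single knockout nucleus held more than 6.93% of its class's Klf2 UMIs in the 5 endothelial, stromal and myeloid classes.

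Epithelial Klf2 was low, and part of its level is what free RNA would give. The free RNA level was estimated from markers of other compartments, as their level in a class in percent of their level over all barcodes. Fibroblast and smooth muscle markers stood at 9.93% in knockout crypt base-like nuclei, which would bring 8.69 CPM of Klf2, and 12.0 CPM was measured (30 UMIs, against 3.11 CPM and 7 UMIs in the wild-type library). In knockout goblet-like nuclei 8.77 CPM would be expected and 23.7 CPM was measured, nearly all of it in the cluster led by Clca1 and Fcgbp (40.4 CPM) and little in the cluster led by Mptx1 and Reg4 (6.498 CPM). The unnamed cluster 1, led by Plet1 and Car8 and rich in Muc2, had 27.2 CPM against 7.16 expected. With 10% free RNA subtracted, the colonocyte-like ratio of 1.93 became 1.01 and the proliferating-like ratio of 1.46 became 0.618. In enteroendocrine-like nuclei Klf2 was listed at 0 in the wild-type library, where 3 counts would be 14.1 CPM, and at 24.6 CPM (7 UMIs) in the knockout library.

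**Figure D2:**
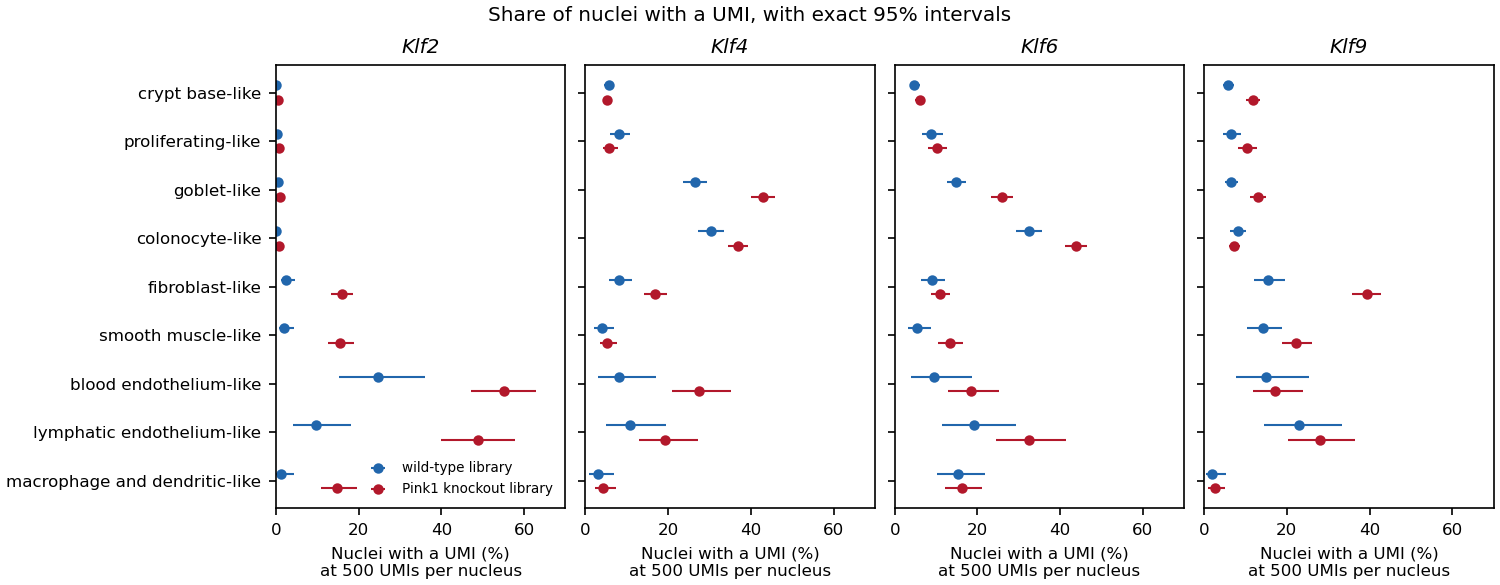
Share of nuclei with at least 1 UMI of Klf2, Klf4, Klf6 or Klf9 (x axis, percent) in 9 classes, with each nucleus thinned to 500 UMIs. Points are the wild-type (blue) and the Pink1 knockout library (red), and bars are exact 95% intervals. For Klf2 the knockout points lie to the right in both endothelial classes, the 2 stromal classes and the macrophage and dendritic-like class, while the epithelial classes stay near 0.

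Klf4, which directs goblet cell maturation and is also an endothelial factor, was highest in goblet-like nuclei in both libraries. This class held 1586 wild-type and 2883 knockout UMIs, 817 CPM (777 to 858) and 1315 CPM (1268 to 1364), a ratio of 1.61 (1.51 to 1.71). Colonocyte-like nuclei had 1382 and 2774 UMIs, 793 CPM (752 to 836) and 1072 CPM (1033 to 1113), a ratio of 1.35 (1.27 to 1.44), and their interval overlapped that of goblet-like nuclei in the wild-type library only. Within the goblet-like class Klf4 was at 540 and 762 CPM in the cluster led by Mptx1 and Reg4 and at 1265 and 1850 CPM in the cluster led by Clca1 and Fcgbp. The second of these made up more of the knockout nuclei, 552 of 1119 against 338 of 950, and with both clusters weighted alike the goblet-like ratio was 1.45, just under 1.5.

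In crypt base-like and proliferating-like nuclei Klf4 was lower in the knockout library. Crypt base-like nuclei had 271 and 225 UMIs, 120 and 90.2 CPM, a ratio of 0.750 (0.625 to 0.898). By cluster it was 0.669 (0.521 to 0.856) in the cluster led by Fut9. In the cluster led by Hoxb8 it was 0.862 (0.656 to 1.13), with an interval across 1. Proliferating-like nuclei had 157 and 136 UMIs, 147 and 109 CPM, a ratio of 0.744 (0.587 to 0.942). The ratio of the crypt base-like class moved to 0.488 with 10% free RNA subtracted and to 0.942 when nuclei were thinned. In the unnamed epithelial clusters 0, 7 and 8 the ratios were 0.908, 0.910 and 1.04, between those of the crypt and of the named surface and goblet classes.

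Outside the epithelium, Klf4 was highest in blood endothelium-like nuclei, with 31 UMIs (365 CPM, 248 to 518) in the wild-type and 138 (883 CPM, 742 to 1043) in the knockout library, a ratio of 2.42 (1.63 to 3.70). Markers of goblet and colonocyte nuclei stood in this class at 81.0% of their level over all barcodes in the wild-type library, against 17.4% in the knockout library, and 1 wild-type nucleus held 34.4% of those marker UMIs. At these levels free RNA would bring 313 CPM of Klf4 to the wild-type and 87.8 CPM to the knockout class. By the same estimate 681 CPM of Klf5 would be expected in the wild-type class, where 94.2 CPM was measured. The estimate is therefore too high for the wild-type class. The 9 goblet markers summed to 7114 CPM in wild-type and to 1171 CPM in knockout nuclei of the class, with none of them at 0. Removal of nuclei rich in these markers was added after the data were seen, and its result depends on the threshold. At the threshold tried first, over 5% of UMIs, it took out 1 of 73 wild-type nuclei and the ratio was 2.99 for Klf4, 1.31 for Klf3, 2.36 for Klf6 and 3.55 for Klf2. At the threshold of 2%, set after those values were known, it took out 3 nuclei of the wild-type library and 1 of 163 in the other, where the ratio was 5.38 for Klf4, 1.70 for Klf3, 2.87 for Klf6 and 3.34 for Klf2. All 4 ratios lay above 1 at both thresholds, and the size of the Klf4 ratio rests on these few nuclei. Lymphatic endothelium-like nuclei had 29 and 70 Klf4 UMIs, 278 and 512 CPM, a ratio of 1.84 (1.18 to 2.94). Fibroblast-like nuclei had 138 and 424 UMIs, 227 and 400 CPM, and a ratio of 1.76 (1.45 to 2.15). Smooth muscle-like nuclei had 26 and 80 UMIs and a ratio of 1.83 (1.16 to 2.97), but 58.3 CPM in the wild-type class is close to the 53.8 CPM that free RNA would bring. In macrophage and dendritic-like nuclei the ratio was 1.55 (0.893 to 2.78), with the wild-type level of 87.2 CPM under the 110 CPM expected from free RNA. These estimates may be too high. For Klf5 the wild-type estimate was 117 CPM in smooth muscle-like nuclei, where 78.4 CPM was measured. It was 239 CPM in macrophage and dendritic-like nuclei, where 161 CPM was measured.

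Klf5, which is known to keep crypt cells dividing, was an epithelial gene here. In the wild-type library the named classes ran from 1035 CPM (993 to 1078) in crypt base-like and 964 CPM (906 to 1025) in proliferating-like nuclei, whose intervals overlapped, to 818 CPM in goblet-like and 731 CPM in colonocyte-like nuclei. In the knockout library it was 661 CPM in crypt base-like, 569 CPM in proliferating-like, 744 CPM in goblet-like and 394 CPM in colonocyte-like nuclei. The crypt base-like class had 2330 and 1649 UMIs, a ratio of 0.639 (0.600 to 0.681), with 1047 and 538 CPM in the cluster led by Hoxb8 and 1026 and 773 CPM in the cluster led by Fut9. At the lower clustering resolution, this ratio was 0.689 and no longer past 1.5-fold. The proliferating-like class had 1029 and 707 UMIs and a ratio of 0.590 (0.535 to 0.650), and the colonocyte-like class 1275 and 1019 UMIs and a ratio of 0.539 (0.496 to 0.585).

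This was not so in the goblet-like class, with 1588 and 1630 UMIs of Klf5 and a ratio of 0.909 (0.848 to 0.975). The cluster led by Mptx1 and Reg4 was at 1059 and 1181 CPM, a ratio of 1.11 (1.03 to 1.21), and the cluster led by Clca1 and Fcgbp at 428 and 321 CPM, a ratio of 0.750 (0.643 to 0.875). Klf5 was therefore higher in the first of these goblet-like clusters and Klf4 in the second, in both libraries. The unnamed clusters had ratios of 0.884 (cluster 0), 0.821 (cluster 1), 0.649 (cluster 7), 0.684 (cluster 8) and 0.703 (cluster 13). Outside the epithelium the levels of Klf5 were under what free RNA would bring in the fibroblast, smooth muscle, macrophage and dendritic, and both endothelial classes, for example 57.5 CPM measured against 134 CPM expected in wild-type fibroblast-like nuclei. The estimate thus lay above the measured Klf5 in these classes, and it may be too high for other members there as well. The ratios there were 0.577 in smooth muscle-like, 0.429 in nuclei of the macrophage and dendritic class and 0.120 in lymphatic endothelium-like nuclei (19 and 3 UMIs). They are between levels under this estimate, and how much of these levels is free RNA was not tested. The lymphatic endothelium-like ratio was 1.72 under the stricter filter and 1.24 without doublet removal. T and innate lymphoid-like nuclei had 28 and 4 Klf5 UMIs, 344 and 53.0 CPM, where free RNA would bring 280 and 165 CPM.

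**Figure D3:**
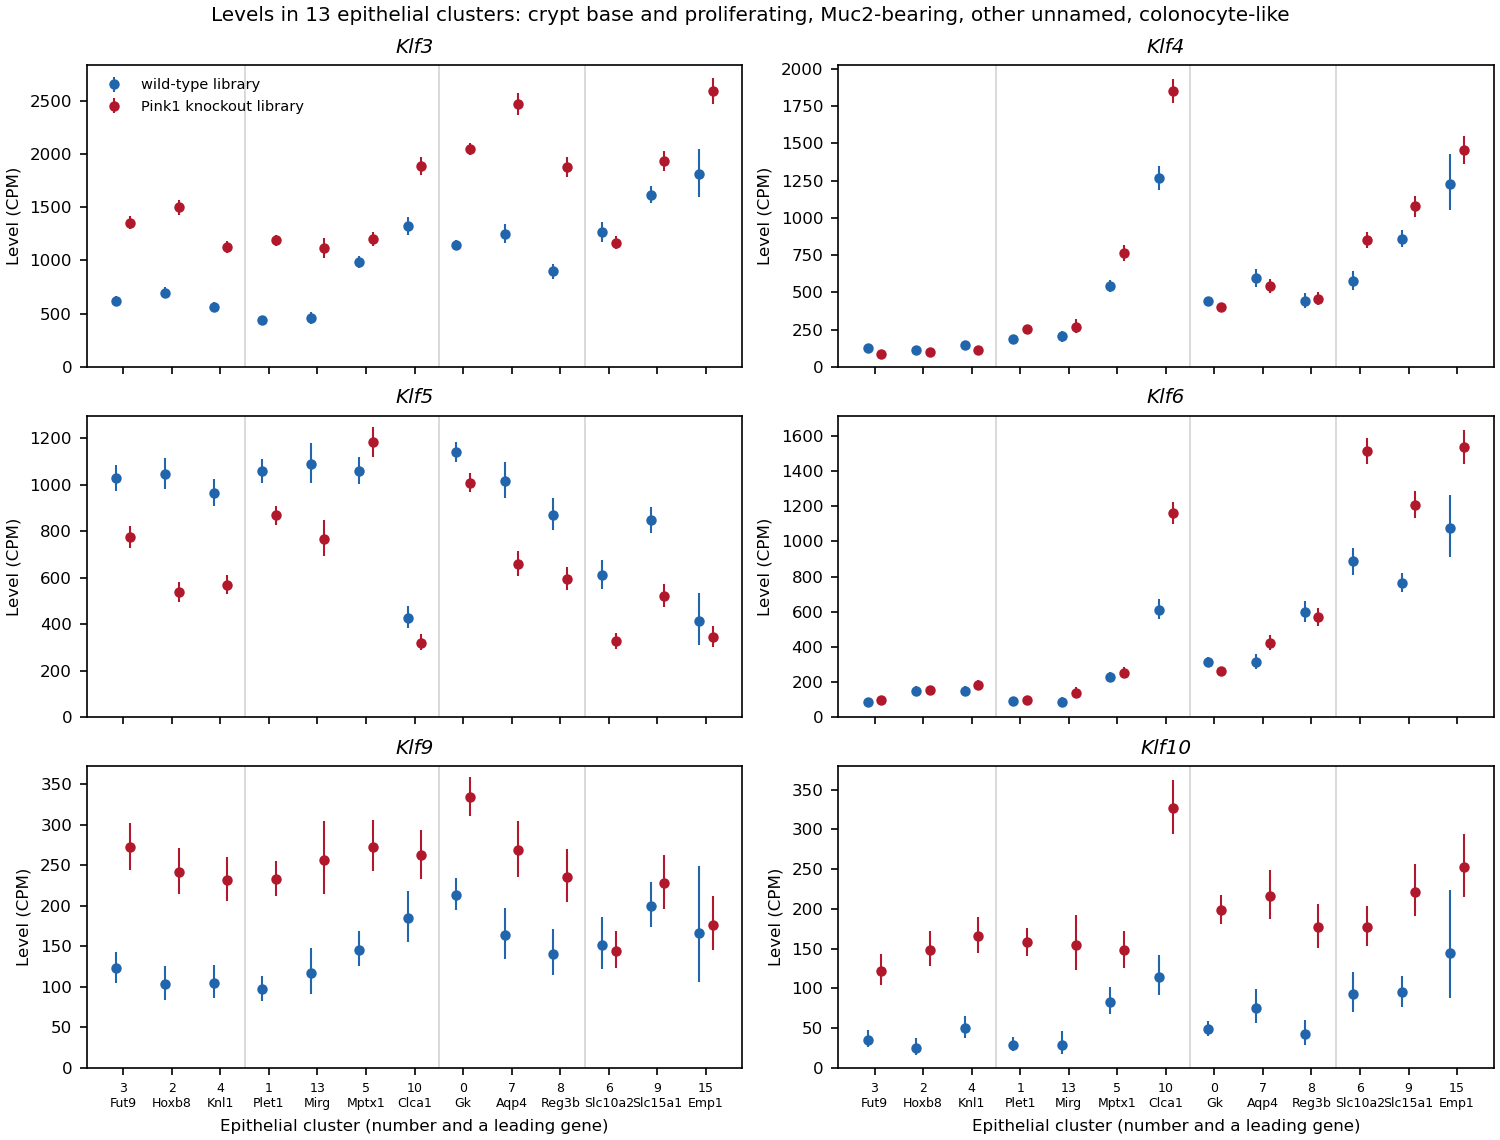
Level (CPM) of 6 Kruppel-like factors in 13 epithelial clusters, each named by its number and a leading gene, in the wild-type (blue) and the Pink1 knockout library (red). Bars are exact 95% Poisson intervals, and grey lines part the crypt base-like and proliferating-like clusters, the 4 clusters rich in Muc2, the other unnamed clusters and the colonocyte-like clusters. Klf10 and Klf9 lie higher in the knockout library across the left and middle clusters, and Klf4 and Klf6 are highest in the cluster led by Clca1 and in the colonocyte-like clusters.

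Klf6, an early response factor known from injured tissue, was highest in colonocyte-like nuclei, with 1447 UMIs (830 CPM, 788 to 874) in the wild-type and 3674 (1420 CPM, 1375 to 1467) in the knockout library. Its ratio there was 1.71 (1.61 to 1.82), with 1.71, 1.58 and 1.43 in the clusters led by Slc10a2, Slc15a1 and Emp1. Lymphatic endothelium-like nuclei were next, with 51 and 120 UMIs, 489 CPM (364 to 643) and 877 CPM (727 to 1049), a ratio of 1.79 (1.28 to 2.54). The goblet-like class held 728 and 1564 UMIs, 375 and 714 CPM, a ratio of 1.90 (1.74 to 2.08). This difference lay in the cluster led by Clca1 and Fcgbp (613 and 1159 CPM) and hardly in that led by Mptx1 and Reg4 (228 and 253 CPM). In crypt base-like nuclei it was 114 and 126 CPM, with a ratio of 1.11 (0.939 to 1.32), and enteric glia-like nuclei had the lowest levels among the named classes, 101 and 103 CPM.

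Klf6 in fibroblast-like nuclei had 117 and 326 UMIs, a ratio of 1.60 (1.29 to 1.99). Smooth muscle-like nuclei held 63 and 212 UMIs of it, a ratio of 2.00 (1.503 to 2.69). It was 1.78 (1.30 to 2.46) in macrophage and dendritic-like nuclei, from 58 and 143 UMIs, and 2.22 (1.37 to 3.78) in blood endothelium-like nuclei, from 21 and 86 UMIs. In wild-type blood endothelium-like nuclei the free RNA estimate for Klf6 was 246 CPM, and 247 CPM was measured. That estimate is too high in this class, with 681 CPM of Klf5 expected and 94.2 CPM measured. Under the stricter filter the Klf6 ratio of blood endothelium-like nuclei was 1.28. With nuclei thinned to 500 UMIs the ratio was 1.34 in fibroblast-like, 1.14 in macrophage and dendritic-like and 1.39 in lymphatic endothelium-like nuclei, each then under 1.5.

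Klf3, the CtBP-binding repressor of the set, was among the named classes likewise highest in colonocyte-like nuclei, 1512 CPM (1455 to 1571) in the wild-type and 1767 CPM (1716 to 1819) in the knockout library, and next in goblet-like nuclei at 1114 and 1551 CPM. In the knockout library the unnamed clusters 7 (2472 CPM), 0 (2045) and 8 (1877) lay above these. The ratios of the crypt base-like and proliferating-like classes and of the unnamed epithelial clusters were higher than those of the goblet-like and colonocyte-like classes. Crypt base-like nuclei had 1469 and 3549 UMIs, 653 and 1423 CPM, a ratio of 2.18 (2.05 to 2.32). Proliferating-like nuclei had 599 and 1398 UMIs giving 2.00 (1.82 to 2.21). Cluster 1, with leading genes Plet1 and Car8, had 686 and 2313 UMIs, 436 and 1188 CPM, and a ratio of 2.73 (2.502 to 2.97). Cluster 13, led by the imprinted noncoding genes Mirg, Rian and Meg3, had a ratio of 2.45, and clusters 0, 7 and 8 had 1.78, 1.97 and 2.09.

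The ratio of Klf3 was 1.39 (1.32 to 1.47) in goblet-like and 1.17 (1.11 to 1.23) in colonocyte-like nuclei, so the crypt and surface classes lay closer together in the knockout library. Outside the epithelium no ratio of Klf3 was called higher. It was 1.14 in fibroblast-like, 0.924 in smooth muscle-like, 0.826 in macrophage and dendritic-like, 1.13 in blood endothelium-like and 1.20 in lymphatic endothelium-like nuclei. In smooth muscle-like nuclei 141 and 130 CPM were measured and 115 and 128 CPM would be expected from free RNA. The lymphatic endothelium-like ratio was 2.36 under the stricter filter, and the smooth muscle-like ratio was 1.74 without doublet removal.

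**Figure D4:**
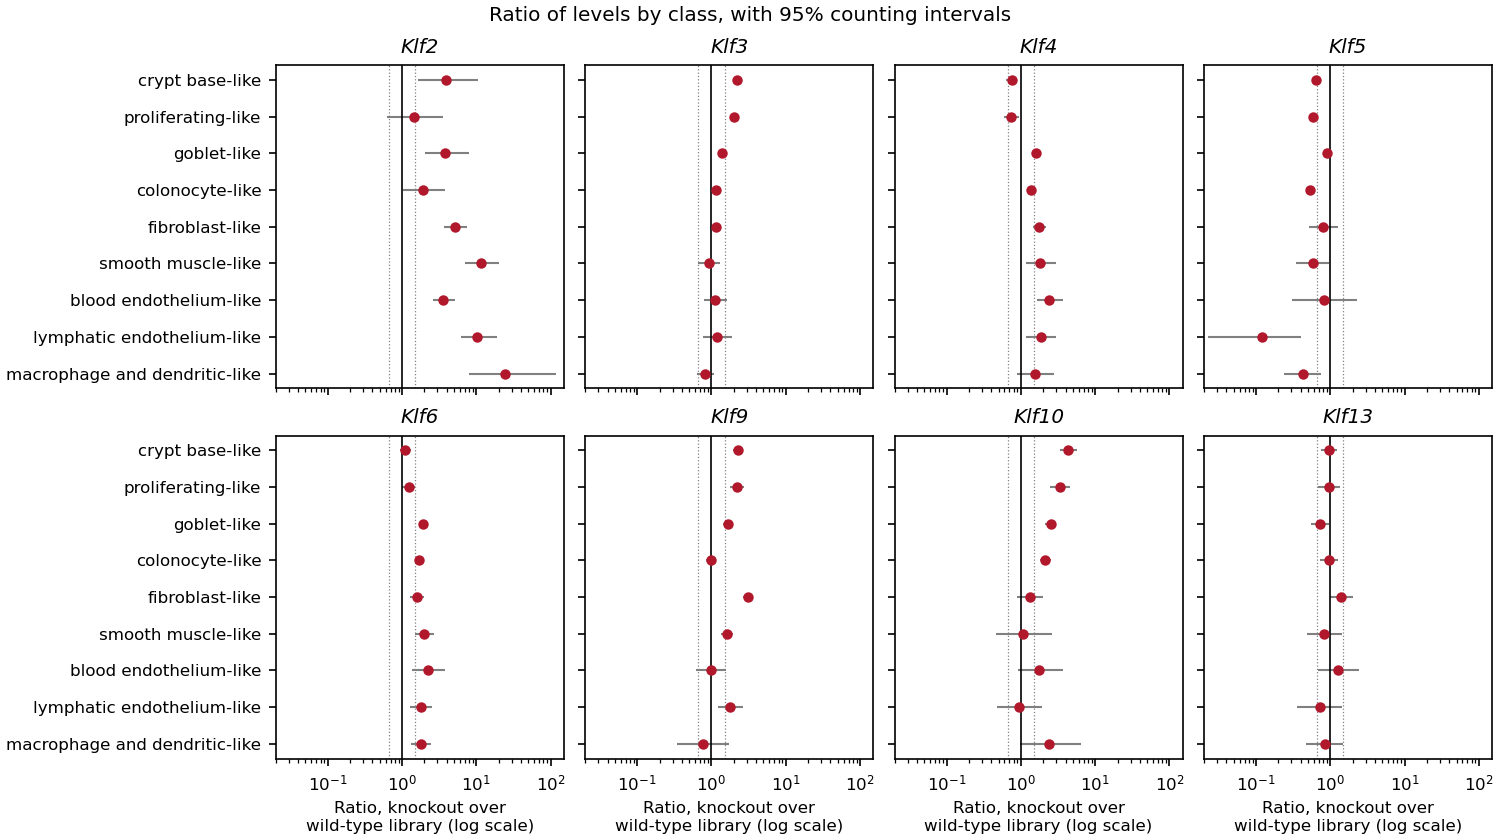
Ratio of the Pink1 knockout over the wild-type library (x axis, log scale) for each Kruppel-like factor in 9 classes, with 95% counting intervals. The solid line marks a ratio of 1 and the dotted lines 1.5-fold in each direction. Klf2 lies furthest right in macrophage and dendritic-like nuclei (24.3), Klf10 lies beyond 1.5-fold in the 4 epithelial classes, Klf5 lies left of 1 in each of the 9 classes, and Klf13 lies within 1.5-fold in each.

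Klf9, a glucocorticoid-induced repressor, was above its epithelial levels in the endothelial, glial and stromal classes of the wild-type library. In the wild-type library lymphatic endothelium-like (393 CPM, 282 to 534), enteric glia-like (366), blood endothelium-like (365), fibroblast-like (352) and smooth muscle-like nuclei (316) had overlapping intervals. In the knockout library fibroblast-like nuclei stood apart from all other named classes but the pericyte-like one. They had 214 and 1162 UMIs, 352 CPM (306 to 402) and 1095 CPM (1033 to 1160), a ratio of 3.11 (2.69 to 3.62). By cluster the ratio was 2.99 in the fibroblasts led by Dcn and Clec3b, 3.72 in those led by Nrg1, Fst and Pdgfra, and 1.60 (0.965 to 2.72) in those led by Gfpt2, Ebf1 and Pi16. Pericyte-like nuclei had 22 and 108 UMIs, 266 and 871 CPM, a ratio of 3.28 (2.06 to 5.45). The thinned share of fibroblast-like nuclei with a Klf9 UMI was 15.5% (12.1 to 19.5) and 39.3% (35.7 to 42.9), and 36.1% and 64.2% before thinning.

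Elsewhere the Klf9 ratio of smooth muscle-like nuclei was 1.62 (1.33 to 1.98), and that of lymphatic endothelium-like nuclei 1.78 (1.23 to 2.64), the latter 1.44 under the stricter filter. It was 0.981 (0.622 to 1.57) in blood endothelium-like, 1.23 in enteric glia-like and 0.773 in macrophage and dendritic-like nuclei, where it was lowest. In the epithelium the ratio was 2.25 (1.94 to 2.61) in crypt base-like nuclei (258 and 642 UMIs), 2.21 in proliferating-like nuclei (112 and 288), 1.66 in goblet-like nuclei (312 and 586) and 0.991 in colonocyte-like nuclei (315 and 463). Klf9 was thus lower in crypt base-like than in colonocyte-like nuclei in the wild-type library (115 and 181 CPM) and higher in the knockout library (257 and 179 CPM).

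Klf10, a TGF-beta-induced gene that also binds Sin3, was called higher in the knockout library in crypt base-like, proliferating-like, goblet-like, colonocyte-like and enteroendocrine-like nuclei, and also in blood endothelium-like nuclei and the macrophage and dendritic-like class. The ratio was 4.33 (3.34 to 5.69) in crypt base-like nuclei, from 70 and 336 UMIs or 31.1 and 135 CPM. In proliferating-like nuclei it was 3.34 (2.46 to 4.604), from 53 and 206 UMIs. Goblet-like nuclei had 185 and 523 UMIs, 95.3 and 239 CPM, a ratio of 2.504 (2.11 to 2.98), and colonocyte-like nuclei 171 and 544 UMIs, 98.1 and 210 CPM, a ratio of 2.14 (1.80 to 2.56). Clusters 1 and 13 had 5.39 and 5.36, and clusters 0, 7 and 8 had 4.05, 2.86 and 4.19. Enteroendocrine-like nuclei had 9 and 25 UMIs and 2.09 (0.942 to 5.08).

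Outside the epithelium Klf10 was at 163 CPM in wild-type lymphatic endothelium-like and 141 CPM in wild-type blood endothelium-like nuclei, the highest levels of that library among the named classes. It had 38 and 88 UMIs in fibroblast-like nuclei, a ratio of 1.33 (0.898 to 2.00), and 10 and 18 UMIs in smooth muscle-like nuclei, a ratio of 1.07 (0.468 to 2.59). Blood endothelium-like nuclei had 12 and 39 UMIs, 141 and 250 CPM, a ratio of 1.77 (0.906 to 3.70), and this was 1.35 without doublet removal. Lymphatic endothelium-like nuclei had 17 and 21 UMIs, a ratio of 0.941, which was 2.09 when thinned, and macrophage and dendritic-like nuclei 7 and 23 UMIs, a ratio of 2.37 (0.985 to 6.54).

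Klf13, which is known to drive Ccl5 in T cells and to repress through Sin3, was within 1.5-fold in most units. Its ratio was 0.955 in crypt base-like, 0.971 in proliferating-like and 0.957 in colonocyte-like nuclei, with intervals across 1. In goblet-like nuclei it was 0.725 (0.542 to 0.966), from 110 and 90 UMIs, and in fibroblast-like nuclei 1.41, from 48 and 118 UMIs, which became 0.763 when nuclei were thinned. T and innate lymphoid-like nuclei had 8 and 15 UMIs, 98.3 and 199 CPM, a ratio of 2.02 (0.804 to 5.50). Klf13 was called lower in enteric glia-like nuclei, 0.341 (0.107 to 0.945) from 14 and 6 UMIs, and in cluster 13, 0.542 (0.302 to 0.945) from 42 and 20 UMIs. Among the compared classes the level was highest in blood endothelium-like nuclei, 188 CPM (108 to 306) and 237 CPM (167 to 326), though other classes came first under some alternatives. Lymphatic endothelium-like nuclei were at 182 and 132 CPM, with intervals overlapping those of blood endothelium.

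By member over the 19 units, Klf2 had at least 20 UMIs in 13, of which 12 were called higher and none lower. Klf9 was higher in 13 of 18 and Klf10 in 12 of 15, with none lower. Klf6 was higher in 8 of 19, Klf4 in 7 of 15 and Klf3 in 7 of 19, the last with 2 lower. Klf5 was lower in 9 of 17 and higher in none, and Klf13 was higher in 1 and lower in 2 of 16. Among the lower calls of Klf5 were smooth muscle, macrophage and dendritic, and lymphatic endothelium-like nuclei, where its levels lay under the free RNA estimate. Its lower calls in T and innate lymphoid-like nuclei and cluster 26 had the knockout level alone under that estimate. The interval of Klf10 lay above 1 in only 9 units. In the 9 classes of the plot of ratios, 6.34% to 20.6% of all genes were called higher and 7.04% to 14.7% lower. These shares are not given for the other units. Cluster 26, which carries markers of both enteric neurons and interstitial cells of Cajal, had Klf2 at 40.7 and 288 CPM (5 and 40 UMIs) but Klf3 at 252 and 50.4 CPM (31 and 7 UMIs). The remaining small classes had too few nuclei in a library to be compared. B-like nuclei (98 and 36) had 7 and 13 Klf2 UMIs, plasma-like nuclei (36 and 85) had 0 and 2, and tuft-like nuclei (42 and 49) had 1 and 3.

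Of the other 18 genes of the Klf and Sp family, 10 had at least 20 UMIs over all nuclei, with a median log2 ratio of -0.08. None was called higher and 1 was called lower, where 6.87% and 8.17% of all genes were. These counts are near the shares over all genes. The lower one was Klf12, a repressor that binds CtBP like Klf3, at 55.0 and 34.0 CPM (ratio 0.619, 0.557 to 0.687). Klf11, the nearest relative of Klf10, had 180 and 280 UMIs and a ratio of 1.27 over all nuclei, and 18 and 44 UMIs and 2.21 (1.25 to 4.06) in crypt base-like nuclei. The 10 corepressors and coactivators all lay within 1.5-fold over all nuclei, from Hdac2 at 0.805 to Kat2b at 1.23, as did the 6 ubiquitin ligases that act on Klf proteins and the 16 upstream factors, from Elk1 at 0.681 to Cdx2 at 1.34. By the shares above, most of all genes lay within 1.5-fold as well. In blood endothelium-like nuclei Mef2c, 1 of the MEF2 factors that bind the type of element shown for Klf2, had 36 and 114 UMIs, 424 and 729 CPM, a ratio of 1.72 (1.17 to 2.58), and in smooth muscle-like nuclei 107 and 125 UMIs and 0.694 (0.532 to 0.907).

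Of 22 genes reported elsewhere as targets of the family, 21 were measured over all nuclei, with 9 called higher and 1 lower, where 6.87% and 8.17% of all genes were. Nos3, the endothelial nitric oxide synthase and a Klf2 target, had 11 and 56 UMIs and a ratio of 4.14 (2.15 to 8.76). Lgals3, a galectin of surface epithelium, had 2126 and 5490 UMIs and 2.10 (2.00 to 2.21). Both ratios are over all nuclei and also move with class sizes. Blood endothelium-like nuclei were 0.884% of the wild-type and 1.49% of the knockout nuclei. The colonocyte-like cluster led by Emp1 held 69 and 345 nuclei. In blood endothelium-like nuclei, where 20.6% of all genes were higher, 6 of 10 were higher and 1 lower: Cdkn1a, a cell cycle inhibitor induced by several members, had 4 and 36 UMIs (4.89, 1.75 to 18.9), S1pr1, a receptor for sphingosine 1-phosphate, had 32 and 126 (2.14, 1.44 to 3.26), and the goblet mucin Muc2, which these cells should lack, had 188 and 91. In lymphatic endothelium-like nuclei none of 9 was higher and 2 were lower, where 18.0% and 13.8% of all genes were. With 9 genes measured, these counts cannot be set apart from those shares. In fibroblast-like nuclei 4 of 15 were higher and 3 lower, against 11.6% and 10.6% of all genes, with Cdkn1a at 11 and 110 UMIs (5.74, 3.08 to 11.8).

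The immediate early genes, which respond to growth factors, stress and tissue handling within minutes, were mostly higher in the knockout library. Over all nuclei 20 of 23 were called higher in the knockout library and none lower, with a median log2 ratio of 1.40 and Egr1 at 36.5 and 979 CPM. In fibroblast-like nuclei 17 of 19 were higher, in smooth muscle-like nuclei 15 of 16, in macrophage and dendritic-like nuclei 10 of 12 with 1 lower, and in blood endothelium-like nuclei 11 of 12. In goblet-like nuclei 15 of 18 were higher, and in crypt base-like nuclei 11 of 16. Lymphatic endothelium-like nuclei differed, with 3 of 7 higher, 2 lower, Egr1 at 278 and 124 CPM and a median log2 ratio of 0.00, while Klf2, Klf4, Klf6 and Klf9 were each called higher there. The part of the immediate early response, and of its time course during tissue handling, in the differences of the Klf genes was not tested.

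Within the knockout library, Klf2 and immediate early UMIs were seen in the same nuclei more often in some classes. At 500 UMIs per nucleus, 20.5% of the 375 smooth muscle-like nuclei with an immediate early UMI had a Klf2 UMI, against 3.33% of the 150 without. The shares were 19.2% of 177 and 7.07% of 99 in macrophage and dendritic-like nuclei, and 61.3% of 119 and 38.6% of 44 in blood endothelium-like nuclei. In lymphatic endothelium-like nuclei they were 53.2% of 62 and 44.8% of 67. Klf9 in fibroblast-like nuclei was in 40.6% of the 678 with and 26.8% of the 71 without. In lymphatic endothelium-like nuclei Klf9 had the opposite order, 24.2% and 31.3%. Among the other members in knockout fibroblast-like nuclei, Klf3 (14.7% and 16.9%), Klf4 (16.8% and 16.9%) and Klf6 (10.9% and 11.3%) were also lower in nuclei with an immediate early UMI. Klf2, Klf5, Klf10 and Klf13 were higher in them. In the wild-type library 34.5% of 29 blood endothelium-like nuclei with and 18.2% of 44 without an immediate early UMI had a Klf2 UMI. The order was the opposite in wild-type fibroblast-like nuclei (1.82% of 110 and 2.83% of 283) and smooth muscle-like nuclei (1.23% of 81 and 2.34% of 214), each from 8 or fewer nuclei with a Klf2 UMI. It was also the opposite in wild-type macrophage and dendritic-like nuclei (0% of 51 and 1.79% of 112). Nuclei of 1 library are not replicates, and these shares are a description.

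Genes with a pattern over the 19 units most like each member were ranked among 8486 genes by the lower of the Pearson correlations of log2(CPM + 5) in the 2 libraries. Klf2 was most like Thbd (0.85), Cavin2 and Piezo1. Klf3 was most like Cdh1 (0.91), Tspan1 and Ceacam1, Klf5 most like Esrp1 (0.95), Sema4g and Slc10a5, and Klf4 most like Ctnna1 (0.83), Efnb2 and Acad11. Klf6 came nearest to Plec (0.78), S100a10 and Efnb2, Klf9 to Col4a1 (0.78), Serpinh1 and Pakap, Klf10 to Eif1 (0.79), Ctnnb1 and Serpinb6a, and Klf13 to Tap1 (0.78), B2m and Lrrc58. Among the members, Klf3 and Klf4 had a correlation of 0.84 in the wild-type and 0.70 in the knockout library, Klf4 and Klf6 0.72 and 0.69, and Klf2 and Klf5 -0.53 and -0.68. The correlation of Klf5 with Klf10 was 0.10 in the wild-type and 0.71 in the knockout library. These correlations are over classes of the same 2 libraries that differ in depth, and they carry no test.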

How the data were processed

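Nuclei of colon were profiled in 1 wild-type and 1 Pink1 knockout library. The authors deposited raw counts, UMIs of each gene in each barcode. Cell Ranger 6.1.2 is named per the file headers, and the submitters' processing notes name the build mm10 (GRCm38). No source used here states whether introns or strand entered the counting. The libraries held 8924 and 12230 barcodes and 16997995 and 22446326 UMIs. Of 32285 gene IDs, 32158 matched GENCODE M21.

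Barcodes needed 500 UMIs, 300 genes and at most 10% mitochondrial UMIs (8888 and 12146 passed). The highest Scrublet scores, at 0.8% per 1000 barcodes, were removed as doublets (632 and 1180). Nuclei were clustered jointly with scanpy 1.11.5 and leidenalg 0.10.2 (2000 variable genes, 30 components, 20 shared neighbours, resolution 1), leaving Klf, mitochondrial, Xist, Y-linked and Pink1 genes out of the variable genes. Clusters were named by the marker list whose mean log2 fold was highest, if it reached 0.3, at least 3 markers were 2-fold higher, and no other list reached 0.8 of it. This rule was set after the data were seen. The members, markers and lists were chosen with earlier results of these data known.

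Counts were summed per class and library and given as CPM over nuclear-encoded genes, with exact Poisson, Clopper-Pearson and conditional binomial 95% intervals (scipy 1.17.1). Only the conditional binomial interval of the ratio was run on simulated data, as Poisson counts with the sums of goblet-like and smooth muscle-like nuclei. Such counts hold counting error alone, so they cannot show how the interval does with variation between nuclei or mice. Called means at least 1.5-fold apart with at least 20 UMIs. List ratios and medians had 0.5 added to each count. Text names for list genes are those with the highest and lowest ratio by the interval bound nearest to 1, while Klf11 and Mef2c were named after their values were seen. The values of 1 listed target gene are not reported here. Alternatives were a looser and a stricter filter, no doublet removal, resolutions 0.5 and 2, variable genes without immediate early genes, median scaling, thinning to 500 UMIs, subtraction of 10% free RNA, equal weights of clusters no minimum of counts and, added after the data were seen and only for the endothelial classes, removal of nuclei with over 5% and then over 2% of UMIs in epithelial markers.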

Additional observations from a re-analysis of the deposited data

Results flagged for a closer look

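Klf4 lay on opposite sides of a ratio of 1 in different classes, with intervals that do not reach 1. Its knockout over wild-type ratio was 1.35 in colonocyte-like, 1.61 in goblet-like, 1.76 in fibroblast-like, 1.83 in smooth muscle-like, 2.42 in blood endothelium-like and 1.84 in lymphatic endothelium-like nuclei, and 0.75 in crypt base-like and 0.744 in proliferating-like nuclei. Klf13 likewise had a ratio of 1.41 in fibroblast-like and 0.725 in goblet-like nuclei. With 1 library per genotype, none of these differences between classes was tested. The 2 crypt values stayed under 1 under every alternative run but came near it, past the upper bounds of their intervals. The crypt base-like value was 0.942 when nuclei were thinned to 500 UMIs, and the proliferating-like value was 0.953 under the looser filter. The Klf13 value of fibroblast-like nuclei was 0.763 when nuclei were thinned.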

How the results depend on the processing

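Of 697 recomputed ratios, 638 moved by less than the counting interval of the reported ratio, 57 moved by more than that, and 2 went from a called ratio to the other side of 1. These 2 are Klf5 in lymphatic endothelium-like nuclei, 1.722 under the stricter filter and 1.236 without doublet removal. Counting ratios that were not called, 46 of the 697 lay on the other side of 1 from the reported ratio, in 22 of 72 member and class pairs. Thinning to 500 UMIs gave 21 of the 57. The number of members called higher stayed within 1.5 times of the reported number under all alternatives except in macrophage and dendritic-like nuclei, where thinning gave 2 with 5 members measured. The number called lower was less steady. Over all nuclei it was 1 when thinned. It was 2 in crypt base-like nuclei under the stricter filter and with free RNA subtracted, and 0 at resolution 0.5. In proliferating-like nuclei it was 2 when thinned and 3 with free RNA subtracted, and in fibroblast-like and blood endothelium-like nuclei 1 under the stricter filter. In smooth muscle-like nuclei it was 0 under the stricter filter, without doublet removal and when thinned. In macrophage and dendritic-like nuclei it was 0 without doublet removal and 3 with free RNA subtracted, and in lymphatic endothelium-like nuclei 0 under the looser filter, when thinned and with free RNA subtracted. The causes were not tested. Klf2 in crypt base-like nuclei had too few UMIs for a value under 3 alternatives, and Klf5 in 3 and Klf3 in 1 stromal or endothelial class had none left with free RNA subtracted. No paired analysis was possible because each genotype has 1 library. Small classes, such as the 73 and 163 blood endothelium-like nuclei, limit the counting precision.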
